A study of Canis lupus familiaris with 62 samples.

Results

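The 16 canine meningiomas described here shared a low level of RNA from the genes of chromosome 17, in a set of 62 tumours with 1 RNA library each. They were chosen by a chromosome score. Each gene's log2 CPM (library-scaled counts on a log scale, with a prior count of 2) was centred on its mean over the 62 libraries, the centred values were averaged over an autosome, and the library's median autosome was subtracted. Tumours with a chromosome 17 score under -0.2 form the low chromosome 17 tumours, and the other 46 are called the rest. Because chromosome 17 values chose the tumours, they are given as a description with no test, and the tests concern other chromosomes, labels and library measures.

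Meningiomas are tumours of the membranes that cover the brain, and they are the most common primary brain tumour of dogs. When a whole chromosome is lost or gained in a tumour, the RNA of most of its genes usually shifts with it, so a chromosome-wide mean of expression is widely used as a proxy for copy number. Dog chromosome 17 corresponds to segments of human chromosomes 1 and 2. The matching of dog to human segments was not examined here, and no parallel with human tumours is drawn. DNA copy number was not measured here. In bulk tissue, fewer cells of a type and less RNA per cell cannot be told apart, and neither can a small fall in all cells and a large fall in some.

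The tumours arose spontaneously in pet dogs of many breeds, were taken at surgery or shortly after death, and were archived in paraffin at 1 university. Treatment labels put 9 dogs in surgery with radiotherapy (SxRT), 13 in surgery (Sx), 3 in radiotherapy (RT), 3 in an anti-epileptic drug alone, 7 in a steroid, given alone or beside an anti-epileptic drug, and 27 in no treatment. There were 31 females and 31 males, and 7 dogs were intact. The labels give no ages and do not say whether a treatment came before or after the tissue was taken, and replicate numbers below only name a dog within its treatment group.

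The low chromosome 17 tumours formed a set well separated from the others. Their scores had a lowest value of -0.523 (SxRT replicate 9), a median of -0.400 and a highest value of -0.294 (untreated replicate 25), against a lowest of -0.138, a median of 0.159 and a highest of 0.427 in the rest. Around the threshold, untreated replicates 25 and 26 lay just inside it at -0.294 and -0.310, and untreated replicates 8 and 10 just outside it at -0.138 and -0.0863. No library fell between -0.294 and -0.138. As a share of the library's autosomal counts, chromosome 17 took 1.84% to 2.32% in the low chromosome 17 tumours, against 2.46% to 3.97% in the rest. This share uses the same chromosome 17 counts as the score, so it is no separate evidence. The order of libraries differed: RT replicate 1, lowest of the rest at 2.46%, had a score of 0.214.

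**Figure D1:**
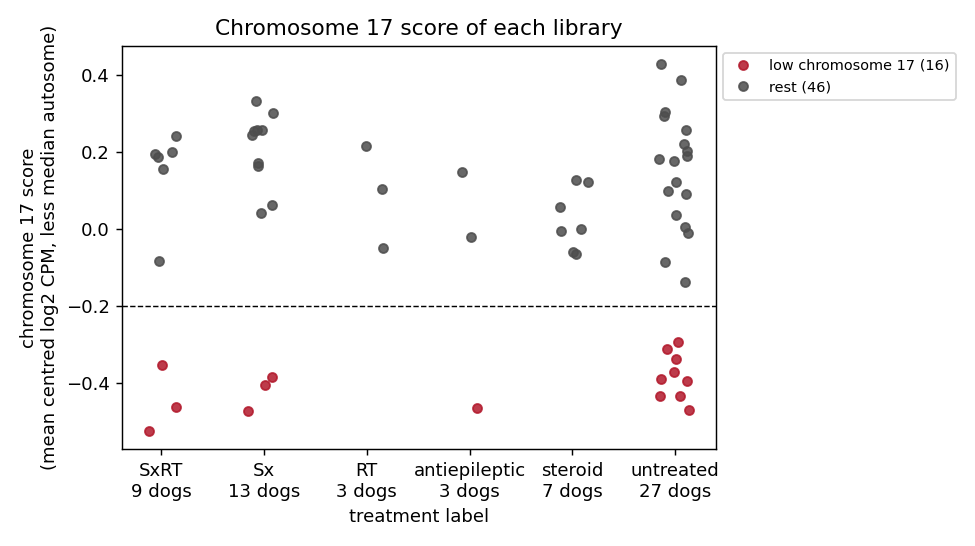
Chromosome 17 score (log2 scale) of each library by treatment label, with the 16 low chromosome 17 tumours in red, the 46 others in grey and the threshold of -0.2 dashed. The low tumours lie between -0.523 and -0.294 and occur in 4 of the 6 treatment groups.

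The lower expression ran over the whole of chromosome 17 rather than a few genes. Of the 371 chromosome 17 genes in the score, 346 (93.3%) had a lower mean log2 CPM in the low chromosome 17 tumours than in the rest, and 25 had a higher one. The median difference over the 371 genes was -0.53 on the log2 scale, so that the median gene stood at 69.4% of its level in the rest, with quartiles of the difference at -0.66 and -0.35. Over the 11115 other autosomal genes the median difference was 0.06, with quartiles at -0.13 and 0.24, and 40.8% of them were lower.

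The shift was similar for genes of different abundance. The median difference was -0.52 for the 133 genes with a mean log2 CPM under 4, -0.53 for the 156 genes from 4 to 6 and -0.51 for the 82 genes of 6 or more. By the number of exon stretches, it was -0.56 for the 185 genes with more than 10 stretches, -0.49 for the 177 genes with 2 to 10, and -0.30 for the 9 genes with 1. None of the 371 genes separated all 16 low chromosome 17 tumours from all 46 others, and none of the 11115 other autosomal genes did so either. The low tumours stand apart through the sum of many modest differences: 77.4% to 85.7% of chromosome 17 genes were below the median of the rest in a low chromosome 17 tumour, against 27.8% to 68.5% in a library of the rest.

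Along the chromosome, all 7 bins of 10 Mb on CanFam3.1 were low together. The bins held 31 to 82 scored genes, and their mean scores ran only from -0.432 to -0.378 in the low chromosome 17 tumours, against 0.127 to 0.146 in the rest. All 7 bins were below 0 in each of the 16 low chromosome 17 tumours, and 13 of these tumours were below -0.2 in all 7 bins. The other 3 had 6, 5 and 4 such bins. In the rest, 34 libraries had no bin below -0.2, 11 had 1 bin and 1 had 2 bins.

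**Figure D2:**
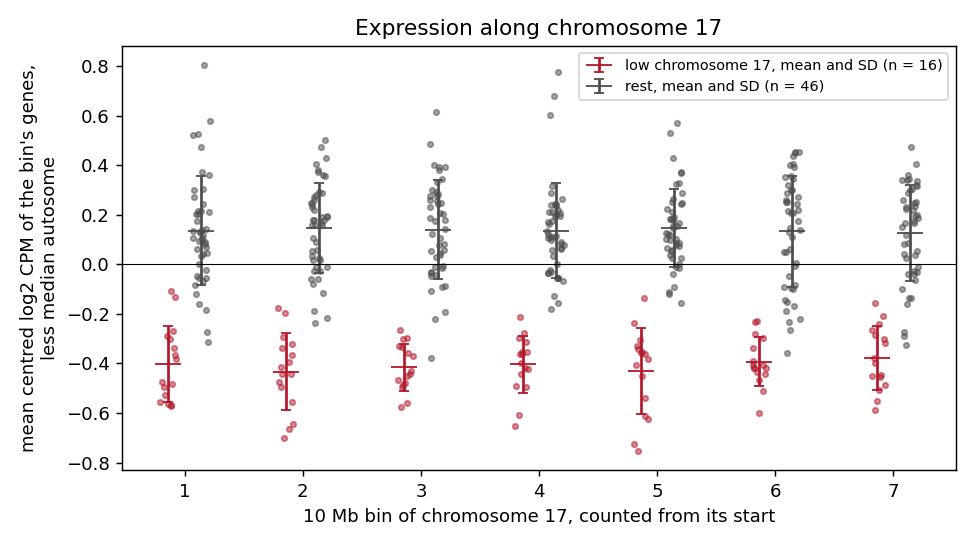
Mean centred log2 CPM of the genes in each 10 Mb bin of chromosome 17, less the library's median autosome, for the 16 low chromosome 17 tumours (red) and the 46 others (grey), with mean and SD beside the points. Every bin mean of the low tumours lies between -0.432 and -0.378, and every bin mean of the rest between 0.127 and 0.146.

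Membership was spread over treatments, and no label passed Fisher's exact test after adjustment. Low chromosome 17 tumours made up 3 of 9 SxRT, 3 of 13 Sx, 0 of 3 RT, 1 of 3 anti-epileptic, 0 of 7 steroid and 9 of 27 untreated tumours (p = 0.479, adjusted p = 0.927 over 6 label tests). Surgical dogs, that is Sx and SxRT together, had 6 low chromosome 17 tumours of 22, against 10 of 40 in the other dogs, with an odds ratio of 1.12 and a 95% interval of 0.281 to 4.19 that leaves room for a large difference either way. By treatment, the median score was -0.462 in low SxRT tumours against 0.190 in the rest of SxRT, -0.404 in low Sx tumours against 0.249 in the rest of Sx, and -0.389 in low untreated tumours against 0.178 in the rest of the untreated. The common threshold for membership bears on these values, and no comparison is drawn from them.

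Of the other labels, neuter status had the most uneven split. Low chromosome 17 tumours came from 4 of 7 intact dogs and 12 of 55 neutered dogs (Fisher's exact test, p = 0.0661, adjusted p = 0.397). They came from 9 of 31 males and 7 of 31 females (p = 0.772 by the same exact test). They also came from 10 of the 29 dogs whose sample name carries a number from 17 to 22 and from 6 of the 33 numbered 11 to 16, a number the labels do not explain (p = 0.160, adjusted p = 0.481, exact). Among breeds with 5 or more dogs, members numbered 3 of 7 Boxers, 2 of 7 Labrador Retrievers, 2 of 6 Australian Shepherds, 2 of 5 Golden Retrievers and 2 of 5 dogs of mixed breed. Breed was not tested, since most breeds had 1 dog.

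The survival label, which has no unit in the labels, was compared among the 22 surgical dogs, and the test did not pass. Of the 6 surgical dogs with a low chromosome 17 tumour, 1 had a recorded end, at 52, and 5 were lost to follow-up at 14 to 832 (median 182). Of the 16 in the rest, 7 had a recorded end, at 5 to 847 (median 156), and 9 were lost to follow-up at 52 to 1523 (median 499). Observed minus expected ends in the low chromosome 17 dogs came to -0.456, with an exact permutation p of 0.714 by the log-rank statistic over 74613 splits. The sign turned in Sx dogs alone (0.669, exact permutation p = 0.462) and with stratification by radiotherapy (0.00256, exact permutation p = 1). Only 1 end among 6 dogs stands behind this value.

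Technical measures of the libraries were compared before turning to other chromosomes. Total counts ran from 2645740 to 9997451 in the low chromosome 17 tumours (median 4263212), against 1967061 to 12063982 in the rest (median 4101438; permutation p = 0.450). The share of mitochondrial counts averaged 11.5 ± 3.24% in the low chromosome 17 tumours and 14.3 ± 8.83% in the rest (SD, n = 16 and 46; permutation p = 0.211). Among counts up to 20, the proportion that was even, which tracks how often both reads of a pair were counted, averaged 87.9 ± 3.78% in the low chromosome 17 tumours and 89.8 ± 3.65% in the rest (SD; permutation p = 0.0849, adjusted p = 0.230). The first principal component of genes outside chromosome 17 had a permutation p of 0.0948 (adjusted p = 0.230), and none of the 7 measures passed the test. The 6 libraries that stood apart on that component were all in the rest. None of the 1891 pairs of libraries was alike within sampling noise, with a chi-square of at least 15.3 per gene.

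Genes on other chromosomes were compared in 1 fit. In edgeR's quasi-likelihood fit over 18370 genes, with treatment group, sex and neuter status as covariates, 134 of the 17795 genes outside chromosome 17 (0.753%) passed an adjusted p of 0.05, of which 72 (0.405%) were higher and 62 (0.348%) lower in the low chromosome 17 tumours. The RT and steroid groups, with 3 and 7 libraries, held no low chromosome 17 tumour. With treatment group as a covariate they weigh little in this comparison. In the same fit 129 of 575 chromosome 17 genes (22.4%) passed, all lower, beside 1.43% of all genes in either direction and 1.04% lower. That share follows from the rule, and nothing is read from it. Their small p-values also ease the adjustment for the other genes: when the adjustment was made over the 17795 genes outside chromosome 17 alone, 53 (0.298%) passed, 31 higher (0.174%) and 22 lower (0.124%). Scaling by edgeR's RLE size factors in place of TMM gave 58 higher and 82 lower, so the balance of directions depends on the scaling. With other tools, DESeq2 called 433 (131 higher, 302 lower) and limma voom 792 (546 higher, 246 lower). Within subsets edgeR called 9 genes in surgical tumours and 0 in untreated tumours, where 657 had an unadjusted p under 0.05. The count was 251 with no filter and 426 with no covariates. The number of calls was 82 without antiepileptic replicate 3, 86 without untreated replicate 21, 88 without SxRT replicate 9 and 89 without untreated replicate 18. It was 61 with the even share as a covariate, 170 with the first component as a covariate and 92 without the 6 libraries apart on that component.

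The 72 genes that rose and the 62 that fell differed in size of change and abundance. Genes that rose had a median log2 fold change of 1.06 (0.38 to 4.62) and a median log2 CPM of 6.63, and 41 of them changed by more than 2-fold. Genes that fell had a median of -1.77 (-6.40 to -0.73) and a median log2 CPM of 4.52, and 55 changed by more than 2-fold. Over all genes tested outside chromosome 17 the median log2 fold change was -0.04 and the median log2 CPM 3.80. Both directions held genes with several exons, with a median of 11 exon stretches in genes that rose and 11.5 in genes that fell, against 8 over all tested. Single-stretch genes made up 1 of 72 (1.39%) and 4 of 62 (6.45%), against 8.45% of all tested. Whether a gene passes also depends on its abundance and spread, so nothing is read from these contrasts with all tested genes.

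The called genes were scattered over the genome. Genes that rose lay on 29 chromosomes and genes that fell on 27. The chromosomes given next were chosen after their values were seen. Chromosome 29 had 5 lower and 0 higher calls among 206 genes (2.43%), and chromosome 3 had 6 lower and 0 higher among 522 (1.15%), beside 0.348% lower overall. Chromosome 22 had 4 higher and 0 lower among 234 (1.71%), beside 0.405% higher overall. Calls went both ways on chromosome 31, with 3 higher and 1 lower among 179 (2.23%), beside 0.753% overall. They also went both ways on chromosomes 24 (1.51%), 15 (1.28%), 2 (1.23%) and 14 (1.19%). Chromosome 27 had 2 lower calls among 448 genes, while 73.2% of its genes had a fold change below 0, with a median log2 fold change of -0.18. Chromosome 36 was close to it, with 73.0% below 0 and a median of -0.18, and chromosome 14 had 70.0% and -0.23. Over all 17795 genes the share below 0 was 54.7%. By the plain difference of mean log2 CPM given earlier, 40.8% of the 11115 other autosomal genes were lower. These 2 shares come from unlike gene sets and measures, and the cause of the gap was not tested.

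The gene with the largest increase under the naming rule was ENSCAFG00000018028, on CanFam3.1 chromosome X from 82276187 to 82292375, minus strand, with 5914 bases of exon in 2 stretches. The file gives no symbol for it, nor for any gene below, so its function is not stated. Its log2 CPM had a lowest value of 0.63, a median of 6.25 and a highest value of 9.12 in the low chromosome 17 tumours, against -1.16, 1.19 and 9.40 in the rest, where -1.16 stands for 0 counts and 4 libraries were at 0. The groups overlapped, but 14 of the 16 low chromosome 17 tumours formed a block from 5.48 to 9.12. The exceptions were untreated replicate 9 at 0.63 and Sx replicate 9 at 0.64, with 4 counts each.

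In the rest, steroid replicate 7 at 6.05 was the only library within that block and steroid replicate 2 at 9.40 lay above it, while untreated replicate 8 at 5.44 and Sx replicate 10 at 5.33 came next. Untreated replicate 8 is also the library whose chromosome 17 score lay nearest above the threshold. The chromosome 17 score was -0.06 in steroid replicate 7, 0.12 in steroid replicate 2 and 0.33 in Sx replicate 10, so high levels of this gene also occurred without a low chromosome 17 score. The fitted log2 fold change was 4.49 (SE 0.70; adjusted p = 0.000145 by edgeR's quasi-likelihood test, 0.000501 with the adjustment outside chromosome 17 alone). The steroid group held no low chromosome 17 tumour, so steroid replicates 2 and 7 weigh little in the fit with treatment group as a covariate. With no covariates the log2 fold change was 2.81 (adjusted p = 0.0170 by edgeR). It kept its sign and its call when each low chromosome 17 tumour was left out in turn, but was not called in surgical tumours alone (4.69, adjusted p = 0.0787 by edgeR), and the filter left it untested in untreated tumours alone. By treatment, the median log2 CPM was 6.15 in low SxRT tumours against 0.95 in the rest of SxRT, 6.01 in low Sx tumours against 0.82 in the rest of Sx, and 6.41 in low untreated tumours against 1.35 in the rest of the untreated.

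The other gene named for an increase was ENSCAFG00000009641 (chromosome 24 from 32504675 to 32506214, plus strand, 533 bases of exon in 3 stretches). Its span overlaps those of 2 other genes of the file, 1 of them on the opposite strand. Whether exons are shared was not examined. Counting ignored strand, so reads from any shared exon stretch could not be assigned to this gene alone. Its log2 CPM was 2.43 at lowest, 6.14 at the median and 9.09 at highest in the low chromosome 17 tumours, against -0.21, 3.72 and 8.01 in the rest. The groups overlapped widely, although 12 of 16 low chromosome 17 tumours were above the median of the rest. The log2 fold change of 2.43 (SE 0.60) had an adjusted p of 0.0196 by edgeR, and 0.0503 when adjusted outside chromosome 17 alone. Its call also ended without untreated replicate 18 (log2 fold change 2.22), antiepileptic replicate 3 (2.26), Sx replicate 7 (2.06) or Sx replicate 11 (2.26), and with the even share as a covariate (2.00, adjusted p = 0.166 by edgeR). Within subsets it was not called in surgical tumours (2.91, adjusted p = 0.112 by edgeR), untreated tumours (0.84, adjusted p = 0.831), names 11 to 16 (2.86, adjusted p = 1) or names 17 to 22 (1.73, adjusted p = 0.636).

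The largest decrease under the rule was that of ENSCAFG00000007063 (chromosome 29 from 7757857 to 7762398, minus strand, 765 bases of exon in 3 stretches). Its log2 CPM was 2.56 at lowest, 4.70 at the median and 7.63 at highest in the low chromosome 17 tumours, against 2.45, 6.26 and 11.3 in the rest. The low chromosome 17 tumours lacked the upper range of the rest: 15 of the 16 low chromosome 17 tumours lay below the median of the rest, and untreated replicate 9 was the exception. The log2 fold change was -2.86 (SE 0.75; adjusted p = 0.0322 by edgeR, 0.0704 outside chromosome 17 alone). The call ended in 7 of the 16 fits that each left out 1 low chromosome 17 tumour, namely untreated replicates 18, 19, 21 and 25, SxRT replicates 2 and 9 and Sx replicate 7, with log2 fold changes from -2.88 to -2.71. A threshold of -0.3 dropped only untreated replicate 25 and so repeated that left-out fit (-2.79, adjusted p = 0.0538 by edgeR). The call also ended with the chromosome 17 score as a continuous term (-2.28, adjusted p = 0.0944 by edgeR). Within subsets it was not called in surgical tumours (-3.77, adjusted p = 0.201 by edgeR), untreated tumours (-3.01, adjusted p = 0.375), names 11 to 16 (-2.80, adjusted p = 1) or names 17 to 22 (-3.22, adjusted p = 0.252). The 7 steroid-labelled tumours, all in the rest, had a median of 4.33, within the range of the low chromosome 17 tumours.

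ENSCAFG00000013297 (chromosome 34 from 18369684 to 18522157, minus strand, 2243 bases of exon in 15 stretches) was the other gene named for a decrease. Its log2 CPM was -1.16 at lowest, 1.62 at the median and 4.34 at highest in the low chromosome 17 tumours, against -1.16, 3.41 and 6.71 in the rest. Each group had 2 libraries with 0 counts, and 14 of 16 low chromosome 17 tumours were below the median of the rest. The log2 fold change was -2.83 (SE 0.59; adjusted p = 0.00498 by edgeR, 0.0215 outside chromosome 17 alone), and the call held with each low chromosome 17 tumour left out. It ended in surgical tumours alone (-5.20, adjusted p = 0.0974 by edgeR) and in untreated tumours alone (-2.07, adjusted p = 0.387). It also ended in names 11 to 16 (-1.81, adjusted p = 1) and in names 17 to 22 (-4.29, adjusted p = 0.101 by edgeR). The 3 low SxRT tumours, at -1.16 to 0.12, lay below all 6 others of SxRT, which started at 1.78.

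**Figure D3:**
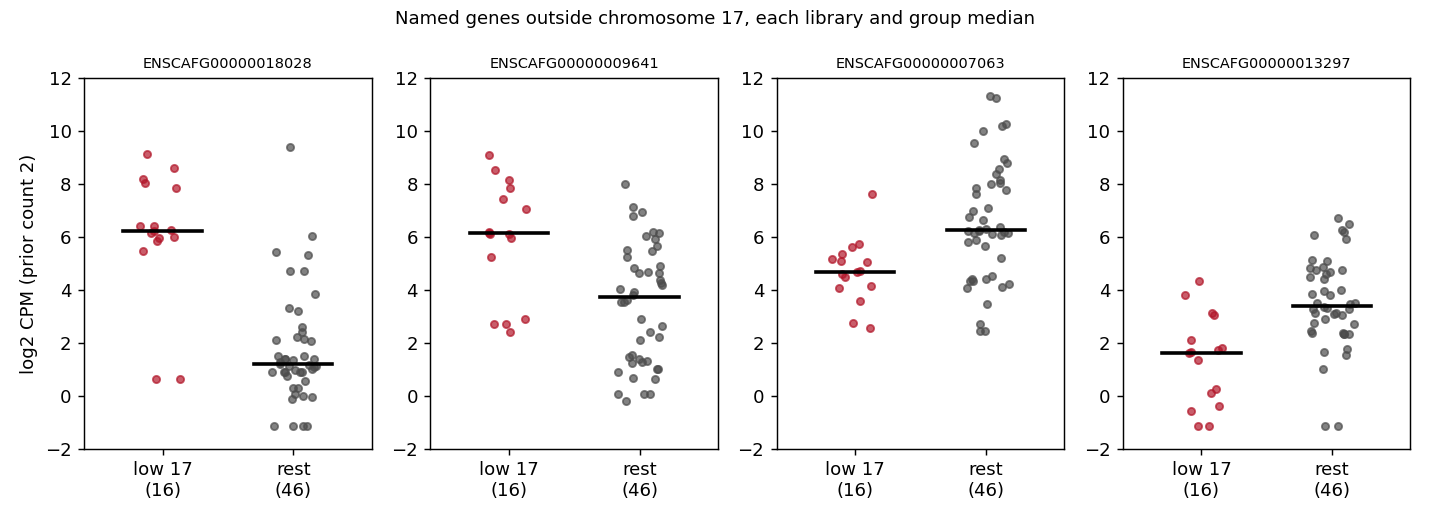
Log2 CPM of the 4 named genes outside chromosome 17 in each of the 16 low chromosome 17 tumours (red, left) and the 46 others (grey, right), with group medians as bars. The groups overlap for each gene, and ENSCAFG00000018028 shows the block of 14 low tumours from 5.48 to 9.12.

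No other chromosome shifted in a way that passed the test across the group. The scores of the 37 other autosomes and X were compared by permuting membership, and 0 of 38 (0%) passed an adjusted p of 0.05, while 9 had an unadjusted p under 0.05. Chromosome 27 had the smallest p: its score averaged -0.136 ± 0.322 in the low chromosome 17 tumours and 0.0432 ± 0.160 in the rest (SD, n = 16 and 46; difference -0.179, permutation p = 0.00475, adjusted p = 0.0897). Chromosome 36 had the largest difference of the 38, at -0.201, with means of -0.152 ± 0.251 in the low chromosome 17 tumours and 0.0487 ± 0.288 in the rest (SD; adjusted permutation p = 0.121), and 14 of 16 low chromosome 17 tumours were below the median of the rest. On chromosome 14 this held for 15 of 16, with a difference of -0.119 (adjusted permutation p = 0.143). Chromosomes 3, 34, 29 and 37 had differences of -0.157, -0.116, -0.126 and -0.101, with adjusted permutation p from 0.121 to 0.144. Chromosomes 21 and 12 had small positive differences of 0.0894 and 0.0732 with the same adjusted permutation p of 0.0897. On each of them only 1 of 16 low chromosome 17 tumours was below the median of the rest, against 9 of 16 on chromosome 27. For chromosome 21 the means were 0.0632 ± 0.0494 in the low chromosome 17 tumours and -0.0262 ± 0.125 in the rest, and for chromosome 12 they were 0.0512 ± 0.050 in the low chromosome 17 tumours and -0.0220 ± 0.103 in the rest (SD).

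The chromosome 27 difference rested on a subset of tumours with strongly low scores. Of the 16 low chromosome 17 tumours, 7 (43.8%) also had a chromosome 27 score under -0.2, and they made up 70% of the 10 tumours with such a score, against 3 tumours in the rest. The median chromosome 27 score was 0.0404 in the low chromosome 17 tumours and 0.0716 in the rest, so the typical member was little shifted. Of the low chromosome 17 tumours, 4 (25%) also had a chromosome 3 score under -0.2, which is 44.4% of the 9 tumours low on chromosome 3. On chromosome 29, 5 of the 16 (31.2%) were under -0.2, or 55.6% of the 9 tumours low there. Chromosomes 34, 37 and 36 each had 4 of the 16 (25%), which made up 57.1% of 7, 50% of 8 and 33.3% of 12 tumours low on that chromosome. Of the 16, 8 (50%) were low on chromosome 27 or 3 and 3 on both, with 14 and 5 such tumours among all 62. Among the 46 others, 5 were under -0.2 on chromosome 3, 4 on 29, 3 on 34, 4 on 37 and 8 on 36. The low chromosome 17 tumours were 16 of the 62, and these overlaps were not tested.

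**Figure D4:**
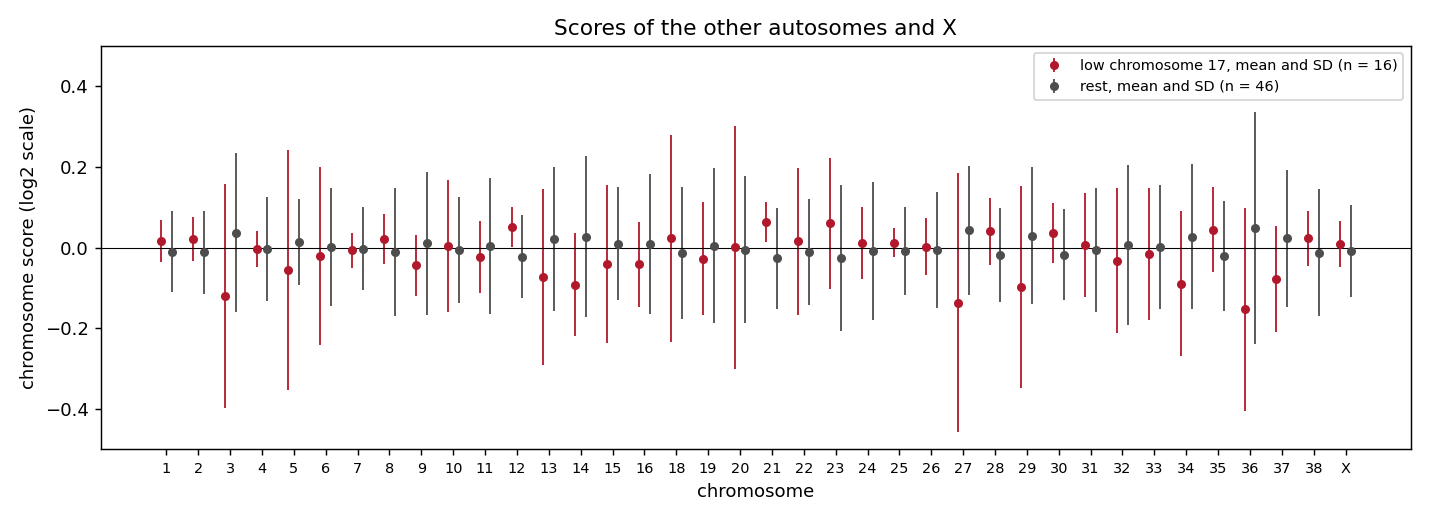
Mean score and SD (log2 scale) of the other 37 autosomes and X in the 16 low chromosome 17 tumours (red, left of each pair) and the 46 others (grey). The intervals overlap on every chromosome, and chromosome 27 in the low tumours has both a mean of -0.136 and a wide SD of 0.322.

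The chromosome 27 and 3 differences were smaller in surgical than in untreated tumours, and the test of that contrast did not pass. Sample names start with S in 21 dogs, all surgical, and with N in 41, of which only Sx replicate 1 was surgical. Surgery therefore cannot be told apart from this letter, which the labels do not explain. Among surgical tumours the difference was 0.00237 for chromosome 27 and 0.00176 for chromosome 3. Among untreated tumours, 5 of 9 low chromosome 17 tumours and 1 of 18 others were low on chromosome 27, and the mean difference was -0.287 (permutation adjusted p = 0.0555). Surgical minus untreated, the difference of these differences was 0.289 for chromosome 27 (permutation p = 0.0616, adjusted p = 0.937 over the chromosomes). At the level of genes, 0 of 13279 genes outside chromosome 17 (0%) had an interaction of membership with surgery at an adjusted p under 0.05 in edgeR, with 603 at an unadjusted p under 0.05, and limma voom also gave 0, with 1057.

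Individual low chromosome 17 tumours ranged from otherwise even to broadly uneven profiles. Untreated replicates 18, 25 and 26 and SxRT replicate 2 had no other autosome beyond 0.2 in either direction. At the other end, Sx replicate 11 had 8 autosomes below -0.2 and 8 above 0.2, and untreated replicate 9 had 10 below and 4 above. The number of other autosomes beyond 0.2 averaged 4.56 ± 4.94 in the low chromosome 17 tumours and 5.74 ± 6.32 in the rest (SD; permutation p = 0.518). Counting autosomes above 0.2 alone, the means were 1.44 in the low chromosome 17 tumours and 3.09 in the rest (permutation p = 0.0635, adjusted p = 0.191).

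**Figure D5:**
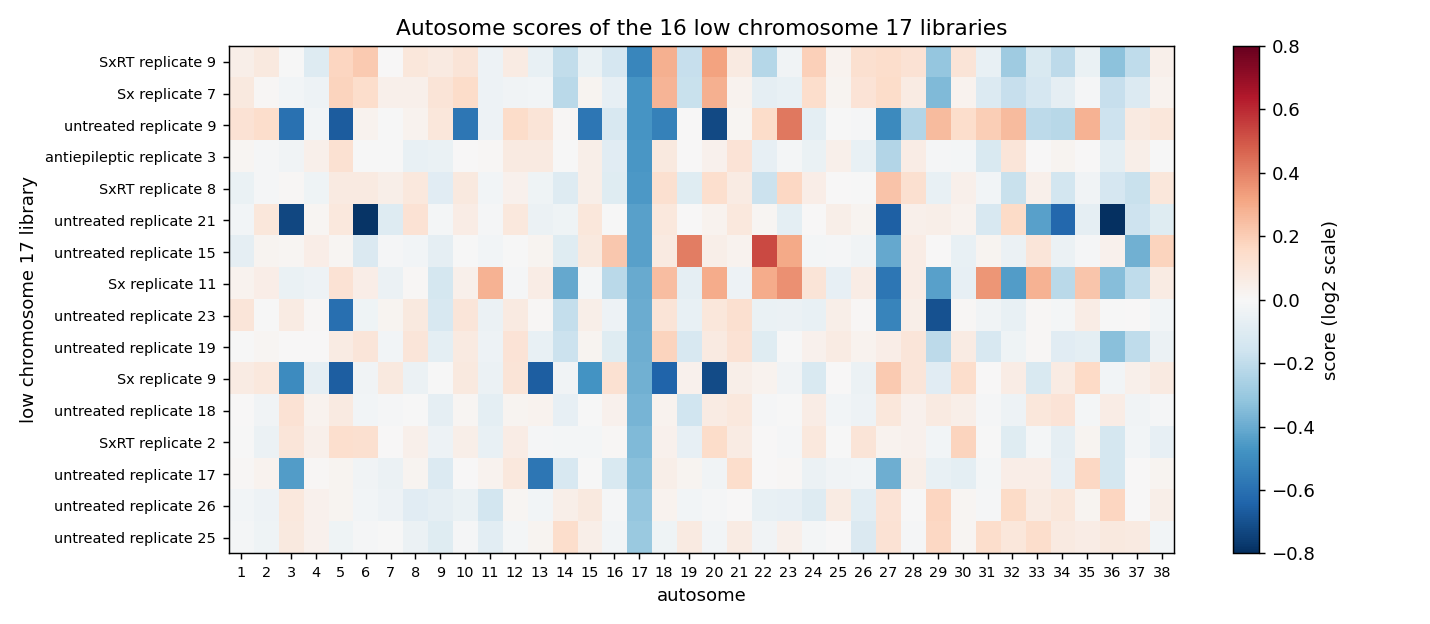
Score (log2 scale, blue low and red high) of all 38 autosomes in the 16 low chromosome 17 tumours, ordered from the lowest chromosome 17 score at the top. The column of chromosome 17 is low throughout, 7 tumours are also below -0.2 on chromosome 27, and the other deviations differ from tumour to tumour.

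Untreated replicate 9 and Sx replicate 9, the exceptions for ENSCAFG00000018028, were alike on some other autosomes and far apart on others. This was noticed after their values were seen. With untreated replicate 9 given first, their scores were -0.60 and -0.50 on chromosome 3, -0.66 and -0.66 on chromosome 5, -0.58 and -0.48 on chromosome 15, -0.54 and -0.64 on chromosome 18, and -0.72 and -0.72 on chromosome 20. Against that, untreated replicate 9 had -0.58 on chromosome 10, 0.10 on 13, 0.42 on 23 and -0.51 on 27, while Sx replicate 9 had 0.08, -0.66, -0.03 and 0.21 on the same autosomes. No other low chromosome 17 tumour was below -0.2 on chromosome 15, 18 or 20. They also had the highest values of ENSCAFG00000013297 among the low chromosome 17 tumours, at 4.34 and 3.81.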

How the data were processed

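Total RNA of 62 archived tumours was sequenced, 1 library per dog. The authors deposited 1 table of raw counts per gene. The counting tool was featureCounts 2.0.4, per the file headers, with exons of Ensembl release 100 (CanFam3.1) as features, without strand and with each read of a pair counted, so counts overstate the number of molecules. STAR and DESeq2 are named in the submitters' processing notes, with no version there. Reads of near-identical or overlapping genes are uncertain.

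The table has 30951 genes, no gene names and 0 columns of another series. A name table of another assembly matched 0 identifiers, so gene lists and cell type markers, and with them the tissue label, were not analysed. Totals ran from 1967061 to 12063982 counts (median 4190135). P-values measure the spread between dogs' single libraries.

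Scores used TMM log2 CPM with a prior count of 2 and 11486 autosomal genes with a mean of at least 2. Genes were tested with edgeR 4.0.16 (quasi-likelihood, filterByExpr, Benjamini-Hochberg adjustment), with DESeq2 1.42.0 and limma 3.58.1 voom as alternatives, after a test on simulated data. SE is the absolute log2 fold change over the square root of F. Scores and library measures were tested with 2-sided permutation of membership (100000 resamples), and dogs with 2-sided Fisher's exact tests. Further alternatives changed scaling, filters, covariates, the threshold and the libraries used. For a gene to be named, its adjusted p had to be under 0.05, its mean log2 CPM 2 or more, and its group medians 0.5 or more apart in the direction of the fold change, met by 62 higher and 42 lower genes, and the 2 largest changes per direction were taken. The mean for naming was taken over all 62 libraries. ENSCAFG00000018028 averaged 1.71 in the rest and 6.12 in the low chromosome 17 tumours, so it met that mean through the low tumours. ENSCAFG00000013297 averaged 1.36 in the low chromosome 17 tumours and 3.54 in the rest. The members, lists and rules were chosen with earlier results of these data known. Replicates were numbered in accession order.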

Additional observations from a re-analysis of the deposited data

Results flagged for a closer look

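Groups of 4 to 10 samples were examined for the chromosome 17 score and for each of the 4 named genes. Of these 25 combinations of group and value, 4 held a sample far from the others by Dixon's criterion. For separate values not chosen from the data, chance gives this in about 1 in 20. In low untreated tumours, untreated replicate 9 had 0.63 log2 CPM of ENSCAFG00000018028, while the nearest of the other 8 had 5.48. In the same tumours it had 7.63 log2 CPM of ENSCAFG00000007063, against 5.61 in the nearest. In the rest of Sx, Sx replicate 10 had 5.33 log2 CPM of ENSCAFG00000018028, against 1.5 in the nearest. In the rest of SxRT, SxRT replicate 4 had a chromosome 17 score of -0.0833, against 0.155 in the nearest. The rule bounded chromosome 17 scores at -0.2 in these groups, so the rate of 1 in 20 does not apply to them. The value of SxRT replicate 4 is given as a description only. The genes were named from these same data, and the rest of SxRT lies within SxRT. The rate is therefore only a rough guide for the genes.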

How the results depend on the processing

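The 134 genes called outside chromosome 17 became 433 with DESeq2 (131 higher, 302 lower), 792 with limma voom (546 higher, 246 lower), 251 with no filter, 426 with no covariates, 61 with the even share added and 53 with the adjustment outside chromosome 17. Within subsets there were 9 in surgical tumours, 0 in untreated tumours (657 at an unadjusted p under 0.05), 0 in names 11 to 16 (493 unadjusted) and 2 in names 17 to 22, where fewer libraries were used. Leaving out each low chromosome 17 tumour gave 82 to 174. The sign of ENSCAFG00000018028 was kept in each fit that tested it, but its adjusted p by edgeR was 0.0787 in surgical tumours, 0.224 in names 11 to 16 and 0.243 in names 17 to 22. Called scores of other chromosomes numbered 3 with no median autosome subtracted (12, 21 and 28), 1 in untreated tumours (12), 1 in names 17 to 22 (28), and 0 with each member left out. Differences that reversed were those of chromosomes 27 and 3 in surgical tumours (0.00237 and 0.00176), the number of deviating autosomes at a limit of 0.3 (0.0571), and the log-rank difference in Sx dogs (0.669) and stratified by radiotherapy (0.00256), where the cause was not tested. No paired analysis was possible because replicate numbers follow accession order and pair no dogs.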
